A study of Mus musculus with 18 samples.

Results

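The CCN genes encode secreted proteins of the extracellular matrix, and 4 of them, Ccn1, Ccn2, Ccn3 and Ccn5, are described here across 18 microarrays of C3H10T1/2 cells, a mouse embryo fibroblast line that can be turned into fat cells. Each gene was found by its symbol in the array's probe-to-gene table and had 1 probe set, so the members are 4 probe sets of 12488 on the array. Ccn4, another CCN gene with a probe set, was not among the members and is described apart. The older names are Cyr61 for Ccn1 (probe set 92777_at), Ctgf for Ccn2 (93294_at), Nov for Ccn3 (100507_at) and Wisp2 for Ccn5 (94704_at). All 4 passed the filter on dim probe sets, which left 7134 probe sets for the tests.

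The cells received 3 treatments in every combination, which gives 8 groups. IDMB, the adipogenic mix, was given for 24 h and held 10 µg/mL insulin, 1 µM dexamethasone, 0.5 µM IBMX (as the labels give it) and 1 µM BRL49653, which is the PPARG agonist rosiglitazone. Epidermal growth factor (EGF) was present for 24 h at 10 nM. TCDD is a dioxin that activates the aryl hydrocarbon receptor (AhR) and was present for 72 h, also at 10 nM. UT and IDMB had 3 arrays each. EGF, TCDD, EGF+TCDD, IDMB + EGF, IDMB + TCDD and IDMB + EGF + TCDD had 2 arrays each. UT is an abbreviation that the labels leave unexplained, and it was taken to mean none of the 3 treatments. Every group, UT included, was collected 24 h after confluence and 72 h after serum was last added. Each array carried mRNA pooled from 6 cultures of the 1 cell line, and nothing in the labels says that replicates were separate experiments, so errors and p-values measure the spread between arrays, which may be technical. The fit, the floor and the tests are described with the processing. In bulk RNA, fewer cells of a type and less RNA per cell cannot be told apart.

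CCN proteins are modular matricellular proteins: they sit in the matrix and act on cells through integrins, heparan sulfate proteoglycans and other receptors rather than as structural fibres. Ccn1 and Ccn2 are classic immediate-early genes of fibroblasts, induced by serum, by TGF-beta and by mechanical tension through the YAP-TEAD and SRF transcription factors. Ccn3 is often described as opposing Ccn2 in matrix production, and Ccn5 lacks the C-terminal cystine knot domain that the other members carry. In fat biology Ccn2 is known as an inhibitor of adipocyte differentiation, and Ccn5 as a secreted product of fat precursor cells.

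Of the 4 members, 1 matched an entry in the RefSeq promoter table. This was Ccn1, and the 250 bases before its start are shown for that reason. The sequence lies on the minus strand at chr3:145649986-145650235 (GRCm38.p6).
Ccn1 promoter: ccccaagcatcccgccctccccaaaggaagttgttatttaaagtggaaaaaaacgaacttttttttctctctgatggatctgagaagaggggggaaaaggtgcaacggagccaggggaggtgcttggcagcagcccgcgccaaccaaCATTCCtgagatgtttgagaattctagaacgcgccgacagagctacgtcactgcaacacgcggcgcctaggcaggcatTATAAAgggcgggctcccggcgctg
The capitals mark the match to the TEAD motif GGAATG, which lies on the opposite strand and so reads as its reverse complement, with its first printed base 103 bases before the start, and the TATA box TATAAA, 25 bases before it. Both strands were searched, and no marked motif overlaps another. The TEAD motif was found in 12.6% and the TATA box in 12.4% of all 32851 windows of the same length. The AhR core GCGTG had 1 match, 47 bases before the start, and was found in 28.2% of windows. The SMAD motif CAGAC, the AP-1 motif TGANTCA, the glucocorticoid receptor motif AGAACA and the SRF CArG box had 0 matches, against 42.2%, 6.75%, 16.1% and 1.47% of windows. A match describes these letters only.

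Some features of the whole data set bear on every value below. The 3' to 5' ratio of the actin control probe sets, a sign of RNA integrity and labelling, ran from 1.23 to 1.93 without IDMB and from 1.80 to 3.80 with it. The same ratio of Gapdh ran from 0.854 to 1.73 without EGF and from 1.43 to 2.86 with it. Of 10 fibroblast markers, 10 had a probe set and 0 was at the floor on every array. Col1a1 lay between 68469.3 and 152910.8 and Pdgfra between 7844.2 and 21993.7. Vim, from 102.7 to 938.6, and Thy1, from 91.7 to 5605.2, were under the floor of 143.5 on some arrays. The summed signal of 7 smooth muscle markers on the array was 38702.4 to 99779 without IDMB and 7250.2 to 21297 with it, with no overlap. Without IDMB most of that sum was Acta2, at 32533 to 84662.1 against 2739 to 14034.2 with IDMB. Every other marker of this set overlapped between arrays with and without IDMB. The summed signal of 8 adipocyte markers was 2619.5 to 6203.4 without IDMB and 2986.3 to 13804.4 with it. That of the fibroblast markers was 268311.6 to 502324.4 without and 253281.1 to 432756.4 with it. The summed signals of 10 skeletal muscle, 5 bone and cartilage, 10 macrophage, 9 endothelial and 8 epithelial markers overlapped between arrays with and without IDMB, and Myf5 (skeletal muscle) and Krt19 (epithelial) were at the floor on every array.

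The 4 genes were proposed as a family from these same arrays. Their values are therefore given as a description, as fitted log2 differences with the standard error (SE), and carry no p-value. A comparison whose arrays do not overlap is one in which every array of one group lies above every array of the other, with values under the floor of 143.5 set to it.

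Ccn1, an integrin-binding matrix signal, and Ccn2, the connective tissue growth factor, were lower with IDMB in all 4 backgrounds. Ccn1 had signal intensities of 4002.4, 1923.9 and 3233.3 on the UT arrays and of 999.3, 1278.8 and 810.9 on the IDMB arrays. The highest IDMB array lay 1.50-fold under the lowest UT array, and the fitted difference was log2 -1.53 (SE 0.321), or 2.89-fold lower. Ccn1 read 3184.4 and 2068.8 with EGF alone, and 919.4 and 1127.8 with IDMB + EGF, 2.52-fold lower (log2 -1.33, SE 0.394). With TCDD it read 4647.5 and 5035.5, the 2 highest values of this gene, and with IDMB + TCDD 1186.1 and 905.8, which is 4.67-fold lower. In EGF+TCDD it read 3783.9 and 3884.5, and in IDMB + EGF + TCDD 625.1 and 1532.9, which is 3.92-fold lower. These last 2 arrays are the lowest and the highest of the 9 with IDMB, and leaving out the second moved the difference to log2 -2.62, 1.57 times the fold, while leaving out the first moved it to log2 -1.32. Across the data set the 9 arrays with IDMB (625.1 to 1532.9, median 999.3) did not overlap the 9 without it (1923.9 to 5035.5, median 3783.9). The mean of the 4 differences was log2 -1.76 (SE 0.188), 3.40-fold lower.

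The difference was larger in Ccn2. Its probe set read 1858.8, 997.6 and 849.7 in UT and 106.3, 156.0 and 55.4 in IDMB, where 1 of 3 arrays was above the floor. It was at least 7.89-fold lower in IDMB (log2 -2.98, SE 0.374), a lower bound because values under the floor are counted as the floor. In EGF it read 3120.9 and 3390.9, and in IDMB + EGF 31.8 and 68.8, at least 22.7-fold lower (log2 -4.50, SE 0.458). In TCDD it read 2575.2 and 1211.4, and in IDMB + TCDD 68.4 and 55.7, at least 12.3-fold lower. Arrays of EGF+TCDD gave 2948.2 and 2143.1 and those of IDMB + EGF + TCDD 49.4 and 67.7, at least 17.5-fold lower. Of the 9 arrays with IDMB, 8 were under the floor, and the 9 without it lay between 849.7 and 3390.9, so the sets stood at least 5.45-fold apart. The mean difference was log2 -3.81 (SE 0.219), at least 14.0-fold lower, and log2 -4.97 where the floor was set at the 5th instead of the 20th percentile of all values. The SEs of Ccn2 rest on 1 spread shared by all groups. The floor set that spread to 0 in IDMB + EGF, IDMB + TCDD and IDMB + EGF + TCDD. These SEs may thus be too small for groups above the floor. There the log2 standard deviation was 0.597 in UT, 0.769 in TCDD, 0.325 in EGF+TCDD and 0.085 in EGF.

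Among the groups without IDMB, Ccn2 was highest with EGF alone. Both EGF arrays lay above all 3 UT arrays, by log2 1.48 (SE 0.418) or 2.80-fold. They also lay above both EGF+TCDD arrays, but with a gap of only 1.06-fold. The fitted difference of EGF+TCDD against EGF was log2 -0.37 (SE 0.458), smaller than its SE. The order of the Ccn2 groups was EGF, then EGF+TCDD, TCDD and UT, each of which overlapped its neighbour, and then the 4 groups with IDMB, which have no order among themselves at the floor. With TCDD present, EGF went with a difference of log2 0.51 (SE 0.458), and the sign of that value turned to log2 -0.03 when TCDD 2 was left out. In the groups with IDMB neither EGF nor TCDD brought Ccn2 above the floor on any array. For Ccn1 the order was TCDD, EGF+TCDD, UT, EGF and then the 4 groups with IDMB. TCDD stood clear of EGF+TCDD, the next 3 overlapped in turn, EGF stood clear of IDMB + TCDD, and the 4 groups with IDMB overlapped. TCDD went with 1.66-fold more Ccn1 than UT (log2 0.73, SE 0.359). Within IDMB the difference was log2 0.03 for TCDD (SE 0.359) and log2 0.01 for EGF.

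Acta2 of the smooth muscle markers and the actin 3' to 5' ratio moved with IDMB on the same arrays, as given above. Their part in the lower Ccn1 and Ccn2 was not tested. A fit with the actin ratio as a covariate gave a mean IDMB difference of log2 -2.12 for Ccn1, against -1.76 without it. The Ccn2 value of that fit is not given here.

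**Figure D1:**
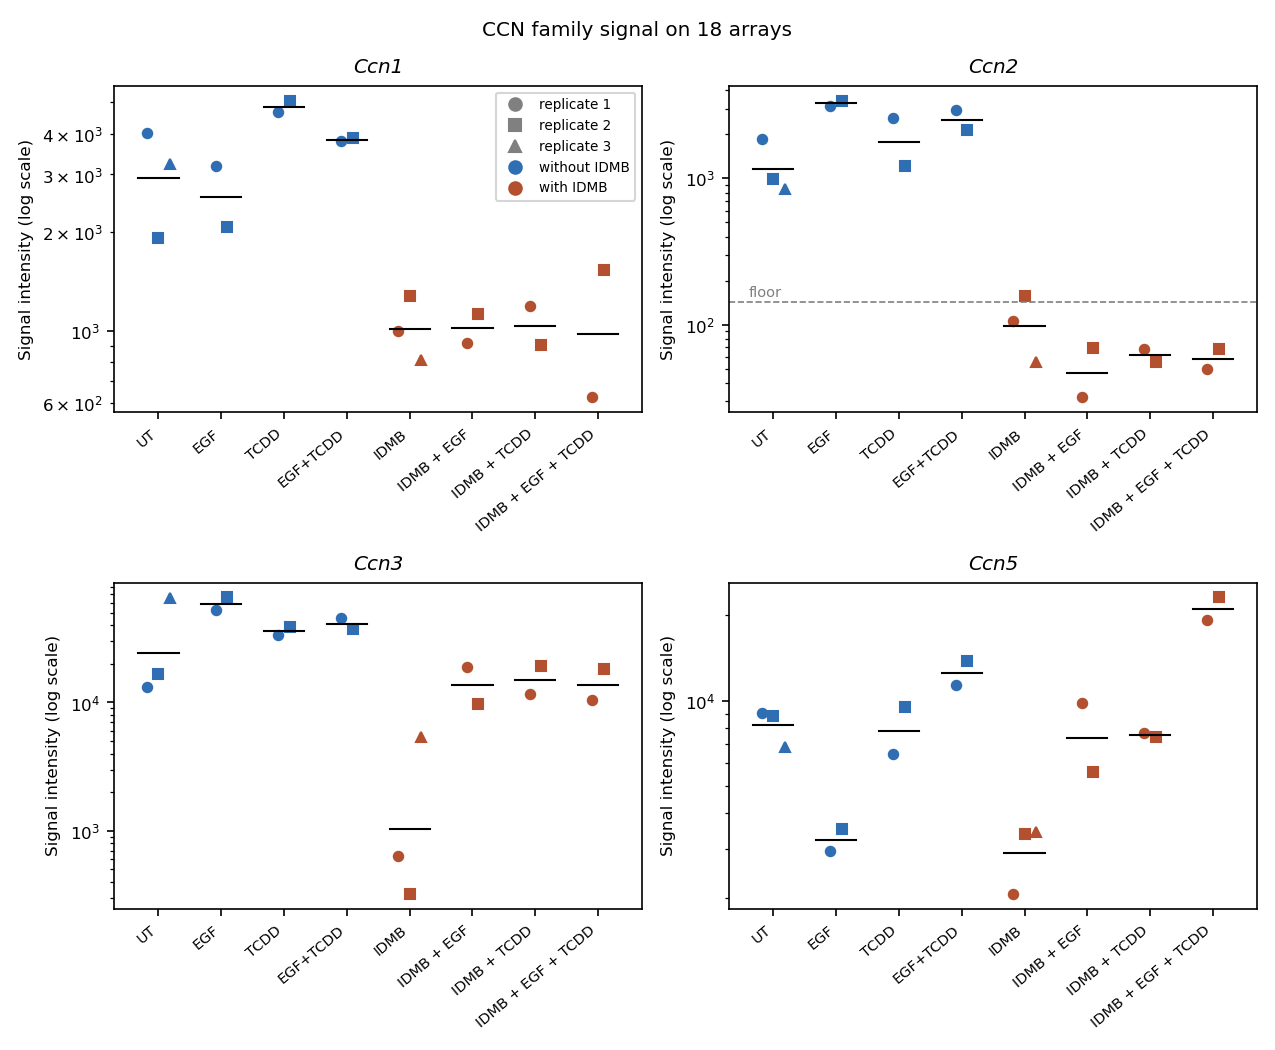
Signal intensity of Ccn1, Ccn2, Ccn3 and Ccn5 (log axis) on each of the 18 arrays by group; point shapes are replicate numbers, colours separate groups with and without IDMB, black bars are geometric means of the values as deposited, and the dashed line in the Ccn2 panel is the floor of 143.5. Ccn1 and Ccn2 are low in all 4 groups with IDMB, Ccn3 is low mainly in IDMB alone, and Ccn5 is lowest in IDMB and EGF and highest in IDMB + EGF + TCDD.

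Ccn3, the Nov gene, was lowest with IDMB alone and did not stay low when EGF or TCDD was added to the mix. It read 13149.5, 16669.5 and 65682.5 in UT and 635.2, 321.9 and 5426.9 in IDMB. In both groups replicate 3 was the highest, at 3.94 times the next array in UT and 8.54 times in IDMB, so the spread within these groups was the widest of the family. The groups did not overlap: the lowest UT array was 2.42 times the highest IDMB array. The fitted difference was log2 -4.55 (SE 0.752), 23.5-fold lower, and ran from log2 -5.75 without IDMB 3 to log2 -3.71 without IDMB 2.

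With EGF added to the mix Ccn3 read 19003.7 and 9760.1, with TCDD added 11661.0 and 19135.6, and with both 10434.8 and 18263.5. All 6 of these arrays lay above all 3 IDMB arrays and overlapped each other. Against IDMB alone, Ccn3 was 13.2-fold higher in IDMB + EGF (log2 3.72, SE 0.841) and 14.4-fold higher in IDMB + TCDD (log2 3.85, SE 0.841). These 2 differences share the 3 IDMB arrays and so move together. Without IDMB 3 they were log2 4.91 and 5.05, and without IDMB 2 log2 2.88 and 3.01. The arrays with both agents overlapped those with 1 of them: IDMB + EGF + TCDD differed from IDMB + TCDD by log2 -0.11 (SE 0.921) and from IDMB + EGF by log2 0.02 (SE 0.921). With SEs of this size, differences of 1 log2 unit between these groups are not resolved.

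Without IDMB the EGF arrays of Ccn3 read 52633.2 and 66027.4, the TCDD arrays 33417.1 and 38785.6 and the EGF+TCDD arrays 45263.7 and 37495.7. Of these 6 arrays, 5 lay inside the range of UT and 1, EGF 2, lay just above UT 3. The EGF difference against UT was log2 1.28 (SE 0.841), and log2 1.99 without UT 3. For TCDD against UT it was log2 0.57 (SE 0.841), and log2 1.28 without UT 3. In the 3 backgrounds with EGF or TCDD, the IDMB difference was log2 -2.11 with EGF (SE 0.921), log2 -1.27 with TCDD and log2 -1.58 with both, or 4.33-fold, 2.41-fold and 2.98-fold lower. None of these pairs of groups overlapped. Over the 4 backgrounds the mean was log2 -2.38 (SE 0.441), 5.20-fold lower, and here the arrays with and without IDMB did overlap, at 321.9 to 19135.6 against 13149.5 to 66027.4. The fitted EGF by TCDD interaction, the EGF difference with TCDD minus that without it, averaged over groups with and without IDMB, was log2 -2.46 (SE 0.881). It was log2 -3.05 without IDMB 3, -3.41 with the replicate block and -1.43 with the Gapdh ratio as a covariate.

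The order of the Ccn3 groups ran from EGF, through EGF+TCDD, TCDD, UT, IDMB + TCDD, IDMB + EGF + TCDD and IDMB + EGF, to IDMB. EGF stood clear of EGF+TCDD by 1.16-fold, IDMB stood clear of IDMB + EGF by 1.80-fold, and every other neighbour pair overlapped.

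**Figure D2:**
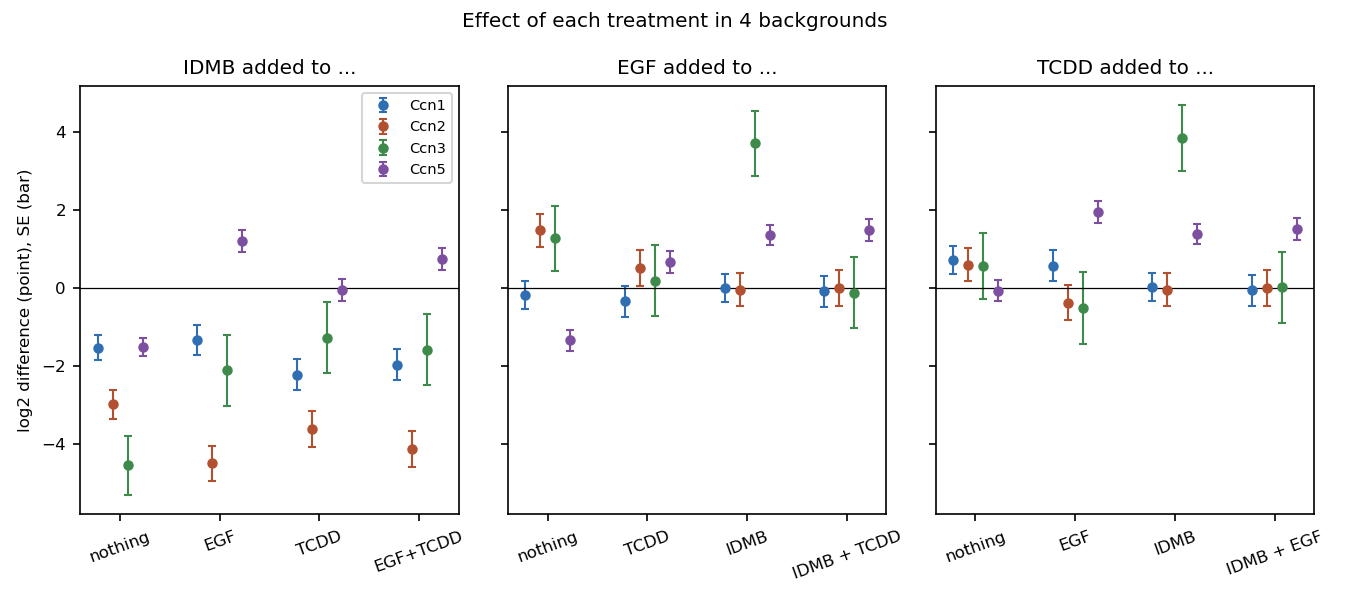
Fitted log2 difference (points) and SE (bars) of each member when IDMB, EGF or TCDD is added to each of 4 backgrounds. Points of different panels that use the same group share its arrays. Ccn1 and Ccn2 lie below 0 in all 4 IDMB comparisons, Ccn3 is far above 0 where EGF (3.72) or TCDD (3.85) is added to IDMB alone, and Ccn5 turns from -1.50 to 1.20 for IDMB when EGF is present.

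Ccn5, the member without the C-terminal domain, was low with IDMB alone and with EGF alone, but not when they were combined, and was highest with all 3 agents. UT arrays read 9047.1, 8787.2 and 6854.8. IDMB arrays read 2075.3, 3377.4 and 3426.7, all 3 under all UT arrays, and the difference was log2 -1.50 (SE 0.232), 2.83-fold lower. EGF arrays read 2946.5 and 3513.7, also under all UT arrays, by log2 -1.34 (SE 0.260) or 2.54-fold. The EGF and IDMB groups overlapped each other.

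In IDMB + EGF, Ccn5 read 9803.0 and 5592.4. Both arrays lay above every IDMB and every EGF array, at 2.57 times IDMB (log2 1.36, SE 0.260) and 2.30 times EGF (log2 1.20, SE 0.284). The signal thus overlapped UT again. Over these 4 groups the IDMB difference with EGF minus that without it was log2 2.70, and averaged over backgrounds with and without TCDD this IDMB by EGF interaction was log2 1.75 (SE 0.272). The wide spacing of the 2 IDMB + EGF arrays carries into these values: without IDMB + EGF 1 the difference against EGF was log2 0.80, and without IDMB + EGF 2 it was log2 1.61.

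With TCDD alone Ccn5 read 6468.7 and 9454.2, 1 array below and 1 above all UT arrays (log2 -0.06, SE 0.260). Given with EGF, Ccn5 read 11346.4 and 13834.4, 3.89 times EGF alone (log2 1.96, SE 0.284), and the lower EGF+TCDD array was 3.23 times the higher EGF array. Given with IDMB it read 7675.4 and 7418.9, 2.62 times IDMB alone (log2 1.39, SE 0.260). In IDMB + EGF + TCDD it read 19204.8 and 23153.8, 2.85 times IDMB + EGF (log2 1.51, SE 0.284) and 2.79 times IDMB + TCDD (log2 1.48). These 2 arrays were above every other array of the data set for this gene. The lower of them stood 1.39-fold over the higher EGF+TCDD array.

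The direction of the EGF difference in Ccn5 therefore varied with the background: -1.34 without other agents, 0.68 with TCDD (SE 0.284), 1.36 with IDMB and 1.48 with IDMB + TCDD, all on the log2 scale. That of IDMB was -1.50, 1.20 with EGF, -0.05 with TCDD and 0.75 with EGF+TCDD, so that the mean over the 4 backgrounds was log2 0.10 (SE 0.136), a value that hides opposite signs. That of TCDD was near 0 against UT and positive in the other 3, with a mean of log2 1.20 (SE 0.136). The arrays with TCDD (6468.7 to 23153.8, n = 8) and those without (2075.3 to 9803.0, n = 10) overlapped across the data set. The group order was IDMB + EGF + TCDD, EGF+TCDD, then UT, TCDD, IDMB + TCDD and IDMB + EGF, then EGF and IDMB. The first 2 groups stood clear of each other and of the rest, the 4 in the middle overlapped in turn, and the last 2 stood clear of the middle and overlapped each other. Leaving out single arrays or changing the scaling did not turn the sign of any Ccn5 difference of more than log2 0.5 between 2 groups.

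Counted over the family, IDMB against UT separated the arrays of 4 of 4 members, against 26.6% of all 7134 probe sets. With EGF it separated 4 (53.7% of all), with TCDD 3 (60.5%) and with EGF+TCDD 4 (54.3%). EGF separated 2 members against UT (37.6%), 2 with TCDD (55%), 2 with IDMB (31%) and 1 with IDMB + TCDD (48.1%). TCDD separated 1 against UT (41%), 4 with EGF (37%), 2 with IDMB (37.4%) and 1 with IDMB + EGF (33.8%). The groups are small, so separation is common among all probe sets. Across all arrays at once, the arrays with and without IDMB were separated for 2 members, Ccn1 and Ccn2 (4.72% of all probe sets), those with and without EGF for 0 (0.14%) and those with and without TCDD for 0 (0.28%). The members were chosen on these arrays, and nothing is read from the counts.

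Of the 2 other CCN genes looked for, Ccn4 (Wisp1, probe set 102044_at), known as a target of WNT signalling, had a probe set. It was no member and was tested. Like the members, it was set in its place with earlier results of these arrays known. Its p-values are therefore not those of a gene chosen apart from these data. Ccn4 read lower with TCDD in all 4 backgrounds, with intensities of 1049.0 to 2641.9 on the 8 arrays with TCDD and 2660.8 to 5881.6 on the 10 without. These did not overlap, by 1.01-fold, and 0.28% of all probe sets separated in this way. The mean TCDD difference was log2 -1.03 (SE 0.137), 2.04-fold lower, limma adjusted p = 0.000281, where 2.83% of all probe sets were called lower and 2.71% higher. In single comparisons Ccn4 was called in IDMB + TCDD against IDMB (log2 -1.29, SE 0.261, limma adjusted p = 0.00663, with 3.53% of all called lower), a call lost without IDMB + TCDD 1 (adjusted p = 0.0790). It was not called in TCDD against UT (log2 -0.87, limma adjusted p = 0.0518, 3.8% called lower), EGF+TCDD against EGF (log2 -0.76, limma adjusted p = 0.673, 0.0421%) or IDMB + EGF + TCDD against IDMB + EGF (log2 -1.20, limma adjusted p = 0.109, 0.14%). TCDD against UT was called with quantile normalization (limma adjusted p = 0.0430) and without UT 1, IDMB 1, IDMB 2 or IDMB 3 (0.0450, 0.0496, 0.0388 and 0.0215). IDMB + EGF + TCDD against IDMB + EGF was called without IDMB 3 (limma adjusted p = 0.0302) and with the replicate block (0.0462).

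The fitted TCDD differences of Ccn4 and Ccn5 thus had opposite signs wherever EGF or IDMB was present. The lowest Ccn4 arrays were those of IDMB + EGF + TCDD, at 1460.5 and 1049.0, where Ccn5 was highest. Ccn4 was also lower with IDMB on average (log2 -0.60, SE 0.137, limma adjusted p = 0.00278). With the actin 3' to 5' ratio as a covariate the difference was log2 -0.36, and the call was lost (limma adjusted p = 0.596). That ratio ran higher with IDMB, so the fit does not separate the ratio from IDMB. For EGF the mean Ccn4 difference was log2 -0.25 (limma adjusted p = 0.248).

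**Figure D3:**
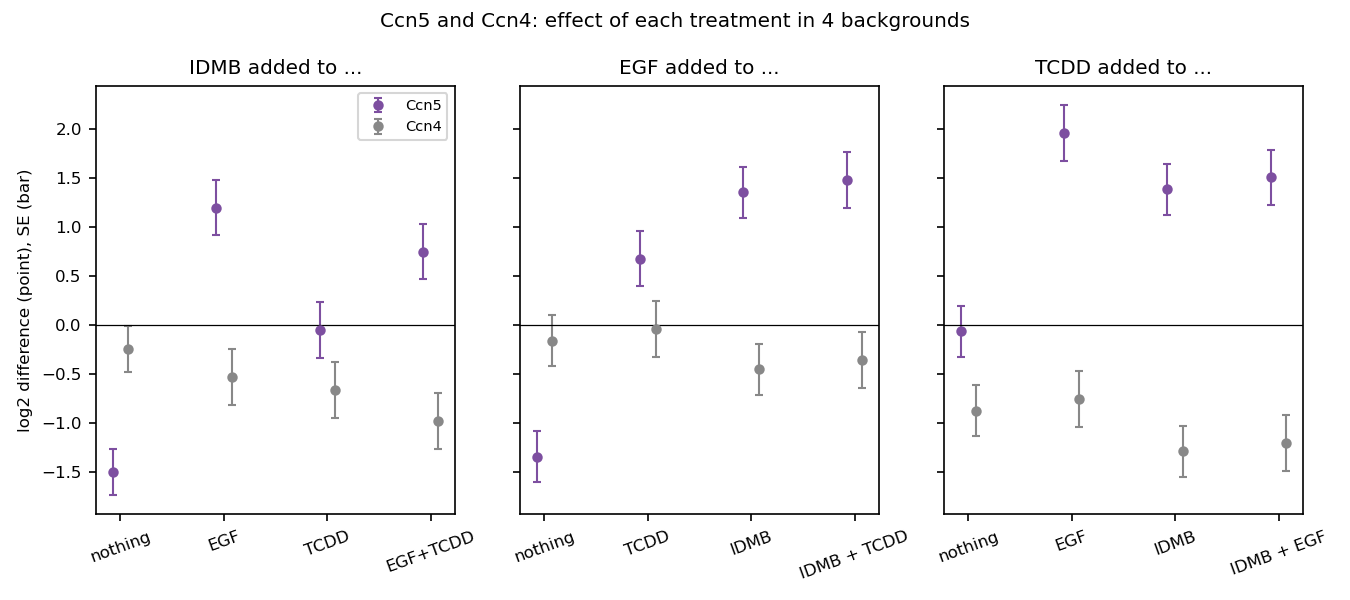
Fitted log2 difference (points) and SE (bars) of Ccn5 and Ccn4 when IDMB, EGF or TCDD is added to each of 4 backgrounds. For TCDD, Ccn4 lies between -1.29 and -0.76 in all 4, while Ccn5 is at -0.06 against UT and between 1.39 and 1.96 in the other 3.

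Over the 18 arrays the log2 values of Ccn1 and Ccn2 had a Pearson correlation of 0.879, Ccn2 and Ccn3 of 0.632, and Ccn1 and Ccn3 of 0.548. Those of Ccn5 were 0.106 with Ccn1, -0.02 with Ccn2, 0.411 with Ccn3 and -0.613 with Ccn4. These are descriptions: the arrays share 8 groups, so each value carries the differences between groups, and the Ccn2 values with IDMB sit at the floor. The 5 genes with the pattern most like Ccn1 were Ifit3 (0.910), Tyro3 (0.903), Nsdhl (0.903), Plk2 (0.901) and Klf6 (0.898). For Ccn2 they were Tyro3 (0.984), Ckap4 (0.963), Rnaseh2b (0.952), Ccnd1 (0.944) and Psat1 (0.942). Tyro3, a receptor tyrosine kinase, thus stood in both sets. For Ccn3 they were Ssr2 (0.958), Cast (0.930), Serpinh1 (0.912), Fkbp11 (0.912) and Fxyd1 (0.906). The best matches to Ccn5 were looser: Cxcl12 (0.831), a chemokine, Aldh3a1 (0.796), an aldehyde dehydrogenase known to be induced through AhR, Galnt10 (0.769), Slc38a2 (0.768) and Ttc14 (0.763).

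The genes around the family were read from 6 lists, of receptors, upstream pathways and other matricellular proteins, with 78 different genes tested. With IDMB, 31 of the 78 were called lower and 9 higher on average (limma adjusted p under 0.05), against 18.6% and 15.5% of all probe sets. With the actin 3' to 5' ratio as a covariate 13 and 2 were called. That ratio ran higher with IDMB, so calls lost in this fit do not separate the ratio from IDMB. Among 23 SRF and MRTF genes, which include the actin cytoskeleton, 11 were lower and 2 higher, with a median of log2 -0.30 against -0.04 over all probe sets. Acta2, smooth muscle actin, was lower by log2 -3.38 (limma adjusted p = 1.22e-12), Myl9, a myosin light chain, by log2 -2.90, the calponin Cnn2 by log2 -1.87 and the tropomyosin Tpm1 by log2 -1.66. These 4 kept their calls with the actin ratio as a covariate, with which 6 of the list were lower and 0 higher. Among 11 YAP and TEAD genes 4 were lower and 1 higher (median log2 -0.34): the kinase Lats2, which restrains YAP, fell by 0.79 on the log2 scale, Tead2 by 0.68 and Amotl2 by 0.64, while Tead4 rose by 0.37. With the actin ratio as a covariate 1 of the list was lower, and Lats2, Amotl2 and Tead4 lost their calls (limma adjusted p = 0.162, 0.0651 and 0.658).

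Of 13 TGF-beta ligands, receptors and SMADs, 6 were lower with IDMB and 0 higher (median log2 -0.18). Ltbp1, which stores latent TGF-beta in the matrix, fell by 1.85 on the log2 scale (limma adjusted p = 0.00101), Smad6 by 0.72 and Smad2 by 0.66. With the actin covariate 1 of the 13 was lower, and Smad6 and Smad2 lost their calls (limma adjusted p = 0.132 and 0.442). Of 11 TGF-beta target genes, 3 were lower, namely the collagen crosslinker Lox (log2 -0.82), Timp1 (log2 -0.73) and Col1a1 (log2 -0.56), and 1 higher, Junb (log2 0.49), with a median of log2 -0.22. Col1a1 (limma adjusted p = 0.0796) and Junb (0.565) lost their calls with that covariate. Other matricellular genes were 7 lower and 2 higher of 14 (median log2 -0.35). Dcn, decorin, fell by 2.39 on the log2 scale, Thbs2 by 1.15, Sparcl1 by 1.14 and Lgals3 by 0.96. With the covariate 3 of the 14 were lower and 0 higher, and Sparcl1 and Lgals3 lost their calls (limma adjusted p = 0.514 and 0.382). The 2 higher genes, Tnc and Bgn, lost their calls in 11 and 14 of the 18 fits that leave out 1 array, and both together without EGF 1. Among CCN receptors 4 of 10 were higher and 1 lower (median log2 0.14). Lrp1, an endocytic receptor of Ccn2, rose by 1.31 on the log2 scale (limma adjusted p = 3.82e-08), Fgfr2 by 0.93, Lrp6 by 0.57 and Igf2r by 0.40, and the integrin Itgav fell by 0.59 (limma adjusted p = 7.96e-05). With the covariate 1 of the 10 was higher and 0 lower: Lrp1 kept its call, while Fgfr2, Lrp6, Igf2r and Itgav lost theirs (limma adjusted p = 0.0987, 0.345, 0.316 and 0.116).

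For EGF, 14 of the 78 genes were called higher and 11 lower on average, against 7.06% and 6.04% of all probe sets. The SRF and MRTF list split evenly, with 5 higher and 5 lower of 23. Its early response genes Egr1 (log2 2.38), Fos (log2 1.63) and Ier2 (log2 0.93) were higher, and Tagln (log2 -1.27), Fhl1 (log2 -0.98) and Acta2 (log2 -0.67) of the same list lower. The receptor tyrosine kinase Axl, a YAP target, rose by 1.79 on the log2 scale. The 11 dropped to 6 without EGF 2 or without TCDD 2, and to 7 without EGF 1, IDMB + TCDD 2 or IDMB + EGF + TCDD 1, while the 7 genes named here kept their calls in every fit without 1 array that tested them (Axl did not pass the filter in 1 of these fits). With the actin or the Gapdh 3' to 5' ratio as a covariate limma called 0 of the 78 for EGF, and 0 of all 7134 probe sets, of which 874 and 614 had an unadjusted p under 0.05. Both ratios reached higher values with EGF, so these fits do not separate the ratios from EGF.

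For TCDD, 14 of the 78 were called lower and 2 higher, against 2.83% and 2.71% of all probe sets, and the 14 dropped to 9 without EGF 2, EGF+TCDD 1, TCDD 1 or IDMB + EGF + TCDD 1. The lower genes included Smoc2, a matricellular protein of the SPARC group (log2 -1.59), the transcription factor Bhlhe40 (log2 -1.19), the fibulin Fbln2 (log2 -0.79), Fhl1 (log2 -0.79), Acta2 (log2 -0.77) and the clotting initiator F3, a YAP target (log2 -0.65). The tropomyosin Tpm2 was higher (log2 0.54). These 7 were picked from the genes that kept their calls when any 1 array was left out. Called genes left out by this rule include Tnc (log2 -1.14) and Tagln (log2 -1.04), whose calls were lost in 4 and 14 of those fits.

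**Figure D4:**
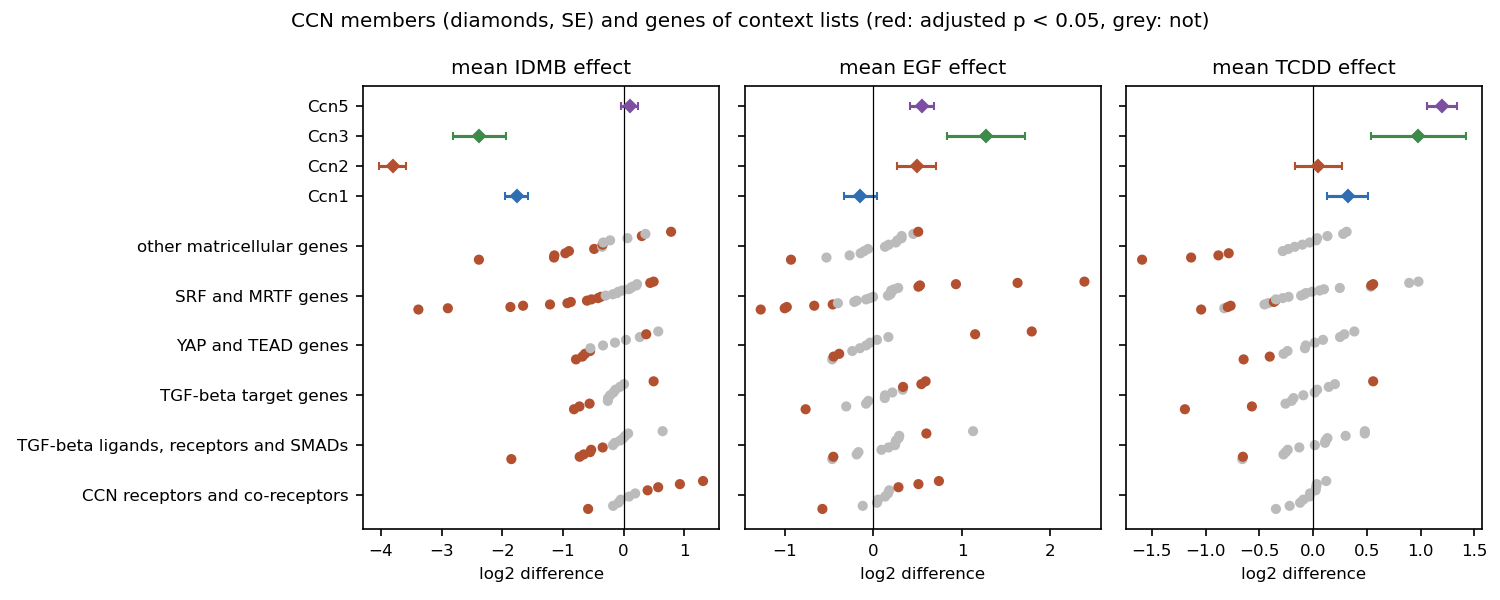
Mean log2 difference for IDMB, EGF and TCDD: diamonds with SE bars are the 4 CCN members, and dots are the genes of 6 lists, red where limma's adjusted p was under 0.05 and grey otherwise. Under IDMB, Ccn2 (-3.81) and Acta2 of the SRF list (-3.38) lie farthest below 0, and under TCDD Ccn5 (1.20) lies above the genes of all 6 lists.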

How the data were processed

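RNA of 18 samples in 8 groups (mRNA pooled from 6 cultures in the sample descriptions, total RNA in their molecule field) was read on 1-colour mouse arrays of 12488 probe sets. The deposited values are signal intensities on a linear scale, per the file headers and the values themselves. Their software (not given in the sources used here) left near-equal trimmed means, so the arrays had been scaled before deposit. Array medians differed by 1.18 times, under the limit of 1.25, so no rescaling was applied. A floor of 143.5, the 20th percentile of the pooled values, replaced lower values before log2. The 66 control probe sets were left out. A single gene symbol was given for 10833 probe sets, several for 396 and none for 1193. A probe set was tested if its highest group mean reached the overall log2 median of 9.73, as 7134 did.

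Differences were fitted with limma 3.58.1 (R 4.3.3; lmFit, contrasts.fit, eBayes with trend), with 1 mean per group over all 18 arrays (10 residual and 6.03 prior degrees of freedom). P-values were adjusted by Benjamini-Hochberg over the 7134 within a comparison, and a call is an adjusted p under 0.05. A mean effect is the mean of 4 differences, 1 per background. The number of arrays limits the precision. The members and the gene and marker lists were chosen with earlier results of these data known. Members are named whatever their values, with no p. Of the lists, only called genes are named with values, at most 4 per direction and list by size, each by its brightest probe set, and for EGF and TCDD those were narrowed to genes whose calls held without any 1 array, where tested. The procedure was tested on simulated data. Alternatives were the scaling, floor, filter, trend, covariates for the 3' to 5' control ratios, the replicate number as a block, fits on 2 groups only and each array left out. The promoter sequence and motif shares come from RefSeq (GRCm38.p6). No gene coordinates are given, since the array annotation names no build.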

Additional observations from a re-analysis of the deposited data

Results flagged for a closer look

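Some differences had opposite signs in 2 backgrounds, with every array of one group on one side in the first and on the other side in the second. None of these contrasts between backgrounds was tested, because the members were chosen on these arrays.

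In Ccn5, the IDMB difference with EGF present exceeded that against UT by log2 2.70, and with EGF+TCDD present by log2 2.25. The EGF difference of Ccn5 exceeded that against UT by log2 2.02 with TCDD present, by log2 2.70 with IDMB and by log2 2.83 with IDMB + TCDD. The value of 2.70 is the same for IDMB and EGF because both are made from the same 4 groups (UT, EGF, IDMB and IDMB + EGF), and all 5 share the UT arrays. In Ccn3, the TCDD difference within IDMB exceeded that within EGF by log2 4.37. Ccn3 is also the member whose replicates spread most, with IDMB 3 at 5426.9 against 635.2 and 321.9 for the other IDMB arrays.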

How the results depend on the processing

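Over 72 member values (18 comparisons and interactions of 4 genes) and 2064 alternative values, the sign was kept in 2003. The largest differences whose sign turned under any alternative were those of Ccn3 in TCDD against UT (log2 0.57) and of Ccn2 in EGF+TCDD against TCDD (log2 0.51, and -0.17 with the Gapdh covariate). The number of probe sets called for the mean IDMB effect was 2432, and 448 with the actin 3' to 5' ratio as a covariate. For the mean EGF effect limma called 935, and 0 with the actin covariate (874 at unadjusted p under 0.05) or the Gapdh covariate (614), and leaving out 1 array gave 463 (without TCDD 2) to 1018 (without IDMB 1). For the mean TCDD effect it called 395, and 260 (without IDMB + EGF + TCDD 2) to 462 (without UT 3) with 1 array left out. A floor at the 5th percentile moved the mean IDMB difference of Ccn2 from log2 -3.81 to -4.97, since a lower floor allows a larger fold. With UT 3 and IDMB 3 both left out, an alternative chosen after seeing the data, Ccn3 differed by log2 -5.03 in IDMB against UT, 4.91 in IDMB + EGF against IDMB and 5.05 in IDMB + TCDD against IDMB. With the Gapdh covariate Ccn3 differed by log2 -0.13 in TCDD against UT and by 1.78 in EGF+TCDD against TCDD (0.57 and 0.19 without it), and the cause was not tested. Deviations of same-numbered arrays from their group means had a median correlation of 0.047 over 57 pairs (-0.10 to 0.438, with 24.6% of pairs over 0.1), against -0.02 over 84 pairs with different numbers. UT 3 with IDMB 3 gave 0.248. In a group of 2 arrays the deviations are equal and opposite. Between 2 such groups, both same-numbered pairs therefore give 1 value, and pairs with different numbers give its negative. Whether same-numbered arrays belong together was thus not tested by these correlations. The main fit did not take the numbers as pairs, under a rule that asked every same-numbered pair to be over 0.1. With the replicate block, Ccn3 differed by log2 2.23 in EGF against UT, 1.52 in TCDD against UT and 4.67 in IDMB + EGF against IDMB. Scaling each array to the same median moved the median of all probe sets in IDMB + TCDD against TCDD from log2 -0.08 to 0.08, and there Ccn5 went from log2 -0.05 to 0.10. No member had a second probe set, so that alternative gave no value. Signals under the floor, as for Ccn2 with IDMB, have no order.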
